A study of Drosophila melanogaster with 2 samples.

Results

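The regions described here are peaks of tagged E(spl)m3-HLH that lay in introns close to, but not at, a gene's start. A peak was taken from the irreproducible discovery rate (IDR) thresholded list when its summit lay inside a protein-coding gene, outside every annotated exon, and over 500 and up to 5000 bp from the nearest annotated transcription start site. This held for 1342 of the 5701 thresholded peaks (23.5%, 95% Wilson interval 22.5 to 24.7). The 1342 peaks lay in 875 host genes. They are called near-start intronic peaks below, and the sequence in which such a summit could fall is called eligible sequence. No measured value was used to choose them beyond the authors' own threshold.

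Chromatin immunoprecipitation sequencing was done on whole Drosophila melanogaster embryos of 0 to 24 h, males and females pooled, from the strain E(spl)m3-HLH-GFP. This line carries a transgenic insertion targeting E(spl)m3-HLH and stably makes the protein fused at its C-terminal end to green fluorescent protein (GFP). Both samples of the only group, biological replicates 2 and 3, share that insertion, and per the labels the precipitation used an antibody to GFP, while the antibody field names E(spl)m3-HLH. Chromatin was sonicated to 200 to 800 bp, whole embryos of all stages were mixed, and neither an untagged strain nor a control library was analysed here. Bound sites of different cell types therefore cannot be told apart.

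E(spl)m3-HLH belongs to the Hairy and Enhancer of split family of basic helix-loop-helix repressors, whose genes are switched on by Notch signalling. These proteins recruit the co-repressor Groucho and are known to bind the E-box words CACGTG and CACGCG and related N-box words. Introns near the start of fly genes, above all the first intron, often hold enhancers and internal promoters.

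The 5 strongest near-start intronic peaks are shown because they give the base composition at the summits. Each run spans the summit and 50 bases to each side of it, on the plus strand of dm6, as read from the RefSeq sequence of that build. Capitals mark, on either strand, the E-box words CACGTG and CACGCG, the N-box words CACGAG and CACAAG, and a further word, ACAGTG, described below.
ush, chr2L:481007-481107: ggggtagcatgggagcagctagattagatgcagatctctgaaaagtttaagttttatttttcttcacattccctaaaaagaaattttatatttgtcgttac
CG11050, chr2L:6612674-6612774: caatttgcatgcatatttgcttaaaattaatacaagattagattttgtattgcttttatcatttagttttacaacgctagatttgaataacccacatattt
Lk6, chr3R:11761007-11761107: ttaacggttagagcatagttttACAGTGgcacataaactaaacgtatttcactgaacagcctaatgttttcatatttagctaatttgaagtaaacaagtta
CG32772, chrX:4910293-4910393: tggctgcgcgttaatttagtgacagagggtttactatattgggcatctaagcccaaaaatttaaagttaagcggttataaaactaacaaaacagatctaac
Tlk, chrX:3742182-3742282: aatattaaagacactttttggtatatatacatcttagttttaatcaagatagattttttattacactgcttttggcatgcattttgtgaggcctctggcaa
None of these 5 windows held one of the E-box or N-box words on either strand, and the window in Lk6 held ACAGTG once. All 5 were rich in A and T, with GC contents of 33.7%, 24.8%, 30.7%, 35.6% and 29.7% in the order printed. The windows of the same width centred 300 bp to both sides had mean GC contents of 47.0%, 47.5%, 44.6%, 38.6% and 39.6%.

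For each of the words CACGTG and CACGCG and for the N-box word CACGAG, 1 of the 2 strongest near-start intronic peaks that held it is shown in the same format, to place the word relative to the summit.
CG43693, chr3L:11048049-11048149: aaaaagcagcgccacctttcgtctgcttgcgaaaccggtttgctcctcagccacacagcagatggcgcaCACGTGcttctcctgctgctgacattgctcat
Klp98A, chr3R:27555126-27555226: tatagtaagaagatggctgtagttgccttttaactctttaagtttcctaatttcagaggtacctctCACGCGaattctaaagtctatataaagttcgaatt
shep, chr3L:5187073-5187173: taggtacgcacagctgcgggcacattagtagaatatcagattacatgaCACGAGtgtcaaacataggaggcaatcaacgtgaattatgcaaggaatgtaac
CG43693 held CACGTG at a signal of 477, Klp98A, a kinesin, held CACGCG at a signal of 380, and shep, an RNA-binding protein gene, held CACGAG at a signal of 505. These peaks ranked 642, 996 and 564 among the 5701. The window in CG43693 was GC-richer than its flanks, 55.4% against 44.1%, unlike those of the 5 strongest peaks.

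The last window is shown because it holds the word ACAGTG on both sides of the summit. That word was found in these data by a scan of all 6-base words and is not one of the listed motifs. The run spans the summit and 100 bases to each side, and capitals mark ACAGTG and its reverse complement CACTGT.
NFAT, chrX:13640407-13640607: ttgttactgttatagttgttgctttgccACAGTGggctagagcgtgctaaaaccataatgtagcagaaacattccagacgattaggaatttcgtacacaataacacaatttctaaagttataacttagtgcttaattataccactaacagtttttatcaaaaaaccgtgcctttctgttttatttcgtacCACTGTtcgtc
In this window the outermost words read ACAGTG on the left of the summit and CACTGT on the right, so that they pointed towards each other. The signal of this peak in NFAT, the fly relative of a calcium-regulated transcription factor, was 1178, and its rank was 76.

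Signal here means the score assigned by the authors' peak caller, on a scale that no source names and that was fixed for each list by itself. Values are therefore compared between lists only by rank or correlation. The strongest near-start intronic peak lay in ush, which encodes a cofactor of GATA transcription factors. Its signal was 3285 in the thresholded list, 1936 in replicate 2 and 1326 in replicate 3. It was the 3rd strongest peak of all in each of the 3 lists. Its nearest start site was that of cbt, a transcription factor gene, 1369 bp away, and not that of ush. The peak in CG11050 followed with 2588 in the thresholded list, 1593 in replicate 2 and 997 in replicate 3. Lk6, a kinase that acts on a translation initiation factor, held a peak with signals of 2168, 1288 and 879 in the same order of lists. The summit in Lk6 lay 978 bp from a start site of Lk6 itself. CG32772 had 2049, 1210 and 842, and Tlk, the Tousled-like kinase of chromatin assembly, had 1679, 993 and 696. These 5 peaks stood in the same order relative to each other in all 3 lists.

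The next 15 peaks lay in genes of several kinds. Trl, the GAGA factor, had signals of 1660 in the thresholded list, 999 in replicate 2 and 660 in replicate 3. The gene pair HmgD and HmgZ, which encode abundant high-mobility-group chromatin proteins, shared a peak of 1638, 864 and 763, 567 bp from a start site of HmgZ. Adf1, a sequence-specific transcription factor, had 1541, 895 and 644. Further down the first 20 came trx, a histone methyltransferase of the trithorax group, with 1054, 652 and 408. Signalling enzymes were represented by Raf, the kinase above MEK in the Ras pathway, with 1163, 702 and 459, by norpA, a phospholipase C, with 1034, 657 and 382, and by for, a cGMP-dependent kinase, with 1019, 670 and 362. The other peaks of the first 20 lay in CG9663, CG3726, CG9837, Hyls1 and chif together, CG12769, NFAT, Reph and CG31635, with signals from 1660 to 1116 in the thresholded list.

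All 20 had a summit within 100 bp in both replicates, and the lowest rank any of them took was 112 in replicate 2 and 142 in replicate 3. Of the 20, 17 lay in the first intron of at least one transcript and 19 had a start site of their own host gene as the nearest one. Their distances to it ran from 567 to 3042 bp, and 6 of them were on the X.

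**Figure D1:**
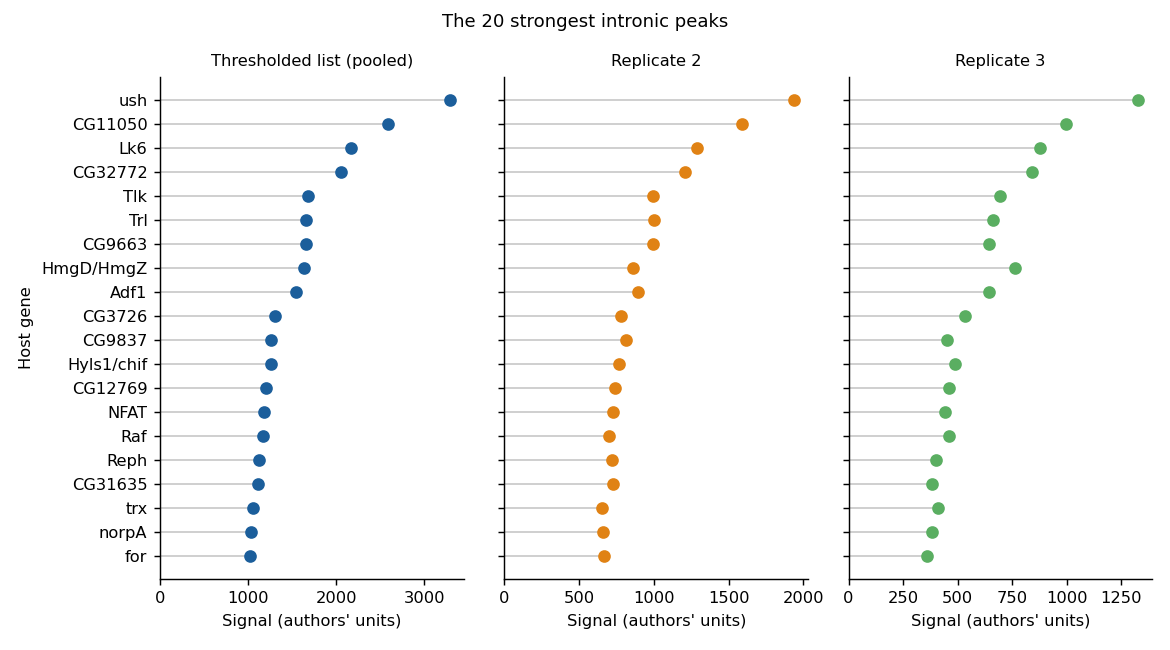
Signal of the 20 strongest near-start intronic peaks (horizontal axis, authors' units, 1 point per peak) by host gene in the thresholded list and in replicates 2 and 3. The peak in ush leads all 3 panels, at 3285, 1936 and 1326, and the panels have their own scales because signal was set within each list.

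The replicate lists searched hold peaks and background as input for IDR, 30000 entries for replicate 2 and 24781 for replicate 3. A match can thus be to a weak entry, down to rank 10955 in replicate 2 and 19318 in replicate 3. Both replicate lists held a summit close to nearly all of the 1342 near-start intronic summits. Replicate 2 had a summit within 100 bp for 1327 of them (98.9%, 98.2 to 99.3), where the share over all thresholded peaks was 98.6%. Replicate 3 had one for 1299 (96.8%, 95.7 to 97.6), where the share over all thresholded peaks was 97.2%. The shares of the near-start intronic peaks were thus near the background. Both replicates had one for 1286 (95.8%), and neither had one for 2. The thresholded list was made from these replicates, so these shares describe how exactly summits agree and are no independent support for the peaks. The median offset between summits was 6 bp in replicate 2 and 15 bp in replicate 3. Any overlap of intervals was found for 1341 of the 1342 in each replicate, where 1 interval of a replicate could count for more than 1 peak.

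Agreement was also counted by strength. Of the strongest 336 by signal, all had a summit within 100 bp in both replicates, whereas of the weakest 336 it was 329 in replicate 2 and 317 in replicate 3. When only as many of the strongest peaks of a replicate were searched as the thresholded list holds, 1216 were found in replicate 2 and 1171 in replicate 3.

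The strongest peaks that lacked a nearby summit in replicate 2 lay in arr, a Wingless co-receptor gene, with a signal of 253, and in Pkc98E, raw, Nost and Ssdp, with signals of 246, 228, 175 and 161. In replicate 3 they lay in Hr3, a nuclear receptor gene of the ecdysone cascade that overlaps CG12912 and CG46321 there, with 282, and in Bacc, Pdcd4, shep and raw, with 243, 235, 228 and 228. Each of these peaks overlapped an interval of the replicate that lacked the nearby summit, but 1 interval can overlap more than 1 peak. In arr the nearest replicate 2 summit, 235 bp away, was the one matched at 28 bp to another near-start intronic peak of arr. In Hr3 the nearest replicate 3 summit, 175 bp away, was likewise the one matched to another such peak there. In raw the summits of replicates 2 and 3 lay 106 and 109 bp from the pooled one, just past the distance used.

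The signals of the 1286 peaks matched in both replicates were correlated. Spearman's rho was 0.82 and Pearson's r of log2 signal was 0.87 across these peaks, which share the genome and the peak caller and are not independent samples. The thresholded list was chosen by reproducibility between these same replicates, and only peaks matched in both were used. The correlations are therefore no independent support for agreement. For peaks within 500 bp of a start site rho was 0.85 (2590 peaks), and for intronic peaks over 5000 bp away it was 0.72 (598 peaks). The median signal of near-start intronic peaks was 192 in the thresholded list (n = 1342, range 108 to 3285), 120 in replicate 2 (n = 1327, range 37.6 to 1936) and 74.3 in replicate 3 (n = 1299, range 17.9 to 1326).

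**Figure D2:**
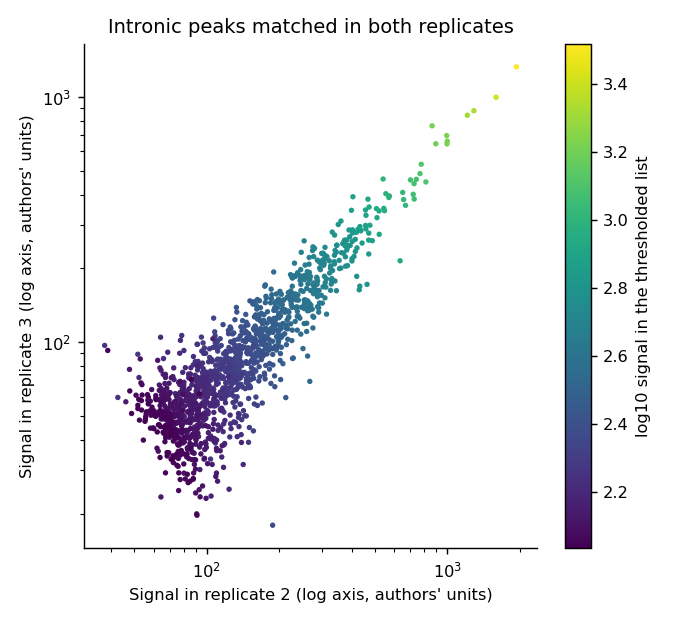
Signal of the 1286 near-start intronic peaks matched in both replicates, replicate 2 on the horizontal and replicate 3 on the vertical axis (both log axes, authors' units), 1 point per peak, coloured by log10 signal in the thresholded list. The points form a single band (Spearman's rho 0.82), and the strongest peak, in ush, lies at 1936 and 1326.

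In strength the near-start intronic peaks stood between promoter peaks and deeper intronic peaks. Their median signal of 192 had an order-statistic 95% interval of 183 to 199. The median was 211 (205 to 219) for the 2707 peaks within 500 bp of a start site, 166 (159 to 175) for the 627 intronic peaks over 5000 bp away, and 175 (169 to 183) for the 884 peaks away from promoters and outside protein-coding genes. The interquartile ranges overlapped, from 140 to 295 for near-start intronic peaks and from 144 to 352 for promoter peaks. Among the 570 strongest of all thresholded peaks were 119 near-start intronic peaks, 8.87% of them (7.46 to 10.5), against 13.3% of promoter peaks and 3.67% of deeper intronic peaks. The list of pooled alignments before thresholding held 6274 summits in eligible sequence. Set against these, the 1342 came to 21.4% (20.4 to 22.4), close to the 22.1% over the whole pooled list. That whole-list share mixes unlike classes. The same ratio was 34.6% for promoter peaks, 15.0% for deeper intronic peaks, 15.4% outside protein-coding genes and away from promoters, and 7.93% in exons away from promoters. These are ratios of counts, since summits of the thresholded and pooled lists were not matched singly. Differences between these classes of peaks were not tested.

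Eligible sequence made up 24.0 Mb, 17.9% of the 6 arms, and held 55.9 peaks per Mb (exact Poisson 95% interval 52.9 to 58.9). Sequence within 500 bp of a start site held 149 per Mb, deeper intron sequence 22.7, sequence outside protein-coding genes and away from promoters 23.5, and exons away from promoters 5.33. Within eligible sequence, the density fell step by step with distance from the start site. It was 90.7 per Mb (81.9 to 100.2) over 500 and up to 1000 bp, with 391 peaks, and 61.1 (55.4 to 67.3) over 1000 and up to 2000 bp, with 420. It was 46.1 over 2000 and up to 3000 bp, 40.8 over 3000 and up to 4000 bp and 34.7 (28.8 to 41.6) over 4000 and up to 5000 bp, with 241, 171 and 119 peaks. The intervals of these last 3 bins overlap between neighbours among them. The strongest peaks of replicate 2 alone gave 91.9 per Mb in the nearest bin and 35.0 in the farthest, and those of replicate 3 alone gave 93.3 and 40.0.

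In every bin introns held more peaks per Mb than sequence outside protein-coding genes, with intervals apart up to 3000 bp. The values outside genes were 54.4 (46.2 to 63.5) over 500 and up to 1000 bp and 31.5 (24.9 to 39.3) over 4000 and up to 5000 bp, where the interval overlaps that of introns. Median signal changed little with distance, from 205 in the nearest bin to between 181 and 191 in the others.

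**Figure D3:**
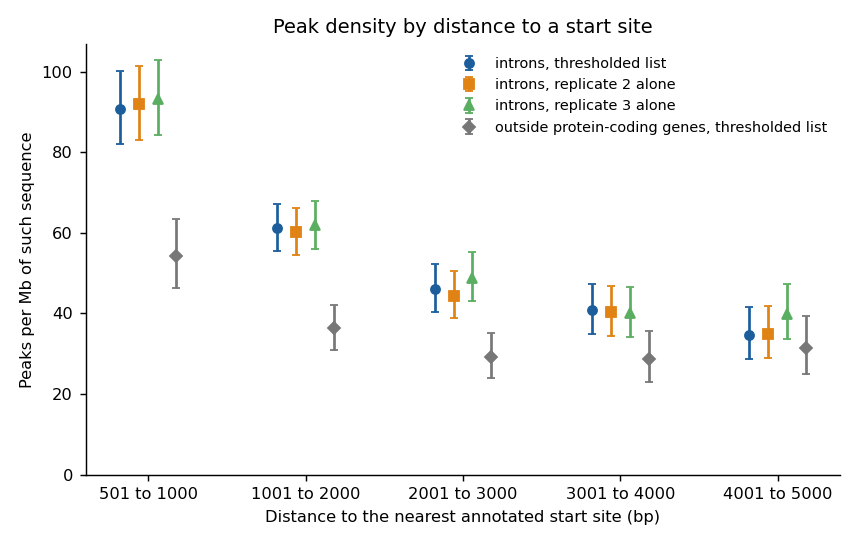
Peaks per Mb of sequence (vertical axis) by distance to the nearest annotated start site (horizontal axis, bp) for introns in the thresholded list and in the strongest peaks of each replicate, and for sequence outside protein-coding genes. Points are densities and bars exact Poisson 95% intervals over peaks. The intron density falls from 90.7 to 34.7 per Mb in the thresholded list, and both replicates show the same fall.

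The rule cuts through a continuous spread of distances. Just inside the near limit were the peaks of CG10663 and CG33725 together at 1 bp past it, Pino at 504 bp and RhoGAP68F at 504 bp, with signals of 222, 240 and 193. Just outside were CAP at 497 bp, Mob2 at 498 bp and bip1 at 499 bp, with signals of 482, 144 and 134. At the far limit CadN (4994 bp, 126), tara (4978 bp, 545) and cno (4969 bp, 332) were inside, and Ork1 (5001 bp, 117), Lrch (5010 bp, 641) and CG46339 (5016 bp, 129) were outside. In all, 107 peaks lay less than 100 bp inside the near limit and 92 within 100 bp outside it.

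Most near-start intronic peaks sat in first introns. The summit lay in the first intron of at least one transcript for 1023 of the 1342 (76.2%, 73.9 to 78.4), where positions every 500 bp of eligible sequence gave 56.9%. It was the first intron of every transcript with an intron there for 655 (48.8%), where the positions gave 36.1%. The median signal in first introns was 195 (187 to 205) and elsewhere 181 (165 to 196), with overlapping intervals. The shortest intron around the summit had a median length of 7301 bp.

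For 1063 peaks (79.2%, 77.0 to 81.3) the nearest start site was one of the host gene, against 65.5% of the positions. Of all 1342 peaks, 754 (56.2%) lay downstream of that start site of the host, as the ones in CG11050, CG32772 and Tlk did, and 309 (23.0%, 20.9 to 25.4) lay upstream of an internal start site of the host, as those in Lk6, Trl, chif, NFAT and Reph did. The positions gave 51.02% and 14.5%. The remaining 279 peaks (20.8%) were nearest to the start site of another gene. That gene was protein-coding for 159 and non-coding for 120, of which 96 were annotated as ncRNA, 13 as tRNA and 8 as snoRNA. The median signals of the downstream, upstream and other-gene sets were 192, 197 and 184, with overlapping intervals.

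By arm, the X held 331 near-start intronic peaks, 70.8 per Mb of eligible sequence (63.4 to 78.8). Arms 2L, 2R, 3L and 3R held 47.4, 50.8, 57.2 and 55.5 per Mb, and the small arm 4 held 1 peak, 3.33 per Mb (0.0843 to 18.6). The order of X above the other arms was the same in replicate 2 alone, with 66.9 per Mb, and in replicate 3 alone, with 71.6. The X interval overlaps that of 3L, which reached 64.3, and the difference between arms was not tested. Median signal was 193 on the X, 190 on 2L, 211 on 2R, 173 on 3L and 203 on 3R, and the 1 peak on arm 4 had 163.

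The 875 hosts were 9.61% of the 9101 protein-coding genes with eligible sequence. They were long, with a median of 17141 bp against 3170 bp for genes with eligible sequence and no near-start intronic peak. A gene with more eligible sequence has more room for a peak: 12.8% of genes with over 1 and up to 3 kb of eligible sequence and 44.0% of those with over 10 and up to 30 kb were hosts. Of the hosts, 579 had 1 peak, 296 had 2 or more and 126 had 3 or more. Another thresholded summit lay within 1 kb of 347 near-start intronic peaks (25.9%).

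The most peaks lay in CG1677 on the X, with 14, of which the strongest had a signal of 719 and the weakest 113. Tlk had 12, with signals of 1679 to 111 in 34.6 kb of eligible sequence. CHES-1-like, a forkhead transcription factor gene, had 9, with signals of 849 to 113, in only 14.7 kb. The gene shn, a zinc-finger cofactor of the Dpp pathway, also had 9, with signals of 518 to 126. The others of the first 10 were kirre, which encodes a myoblast fusion receptor, with 8, tou, a chromatin protein gene, with 8, and ush, RapGAP1, SNF4Agamma and pnt, with 7 each. All peaks of CHES-1-like, shn, tou, ush, SNF4Agamma and pnt had a summit within 100 bp in both replicates. For the pnt peak with a signal of 239, however, the summit in replicate 3 lay 93 bp away and was weak. It had a signal of 17.9 and rank 19318 of 24781, the lowest of any match in replicate 3. In CG1677 that held for 13 of 14 and in Tlk for 11 of 12.

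Hosts had a median of 2 start sites of their own, against 1 for genes with eligible sequence and no near-start intronic peak, and so more places for a promoter peak. A thresholded summit within 500 bp of an own start site was found for 382 of the 875 hosts (43.7%, 40.4 to 47.0), for 25.4% of genes with eligible sequence and no near-start intronic peak, and for 23.2% of all 13945 protein-coding genes. Among genes with up to 1 kb of eligible sequence the shares were 32.6% of hosts and 26.4% of the others. Among those with over 3 and up to 10 kb they were 42.2% of hosts and 19.97% of the others, and among those with over 10 and up to 30 kb they were 44.4% and 21.9%. CG1677, CHES-1-like, shn, RapGAP1 and SNF4Agamma had such a promoter peak, whereas Tlk, kirre, tou, ush and pnt did not. Among the strongest 2850 thresholded peaks alone the share of hosts was 29.1%. In that setting the hosts numbered 530 and promoter peaks were taken from the shorter list too, and the reason for the lower share was not tested.

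Of the 20 gene lists, chosen with earlier results of these data known, 5 had Poisson intervals wholly above the value for all genes: EGFR and Ras, Dpp and activin, glial, Polycomb and trithorax, and epithelial junction and polarity genes, of which the last lay close to that value and was not wholly above it without replicate 3. All protein-coding genes together held 56.5 near-start intronic peaks per Mb of eligible sequence, with 9.61% of eligible genes as hosts. That share ran from 0.76% of genes with up to 1 kb of eligible sequence to 63.3% of those with over 30 kb. The lists were not matched for eligible sequence, so their host counts cannot be read against the 9.61%. Density varied with it as well. It was 30.2 per Mb in genes with up to 1 kb of eligible sequence, 78.6 with over 1 and up to 3 kb, and 48.8 with over 30 kb. It also fell with distance from the start site, for which the lists were not matched either. The comparison of list densities with all genes is therefore unmatched. The lists share genes, the intervals cover counting error of peaks only, and no difference between lists was tested. In these lists a gene is named as the host of a peak, whichever gene's start site was nearest. That start site belonged to another gene for the strongest peaks of Egfr, wit, EcR, br, fra, Sema1a, ex and insc, among others.

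The EGFR and Ras list, which holds the ligands, receptor, kinases and feedback inhibitors of this pathway, had 26 peaks in 10 of its 18 eligible genes, 178 per Mb (116 to 261). Of the core cascade, Raf held 4 peaks, the strongest at 1163. The gene drk, the adaptor that links the receptor to Ras activation, held 1 with a signal of 587. The nearest start site was that of mars for the drk peak. For the Raf peaks of 262 and 193 it was that of a non-coding gene. The receptor gene Egfr held 3 peaks of 234 to 124, all nearest to start sites of other genes, and Dsor1 held 1 of 135. Ras85D, Sos, csw and rl held none, in 0.328, 0.374, 11.4 and 4.22 kb of eligible sequence. Egfr, Dsor1 and these genes without a peak were named after their values were seen. The secreted inhibitor of the receptor, aos, had peaks of 1009 and 135, and edl, an antagonist of ETS transcription factors, had 886 and 184. The feedback inhibitor gene sty, named like aop after its values were seen, had 1 peak with a signal of 206. The ETS repressor gene aop had 4 peaks with signals of 506 to 127, and pnt, the ETS activator of the pathway, had 7 of 279 to 122. The weaker edl peak was nearest to the start site of CG33136. The strongest pnt peak, with some others of pnt, was nearest to that of a non-coding gene. The median signal over the list was 188, close to the 192 of all hosts.

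The Dpp and activin list had 20 peaks in 7 of 15 genes, 186 per Mb (114 to 288), of which shn alone gave 9. Mad, the signal-transducing Smad, had a peak of 691, 654 bp from its own start site. The type II receptor gene wit had 356 and 203, and sog, which encodes a secreted antagonist, had 273. The list of glial genes had 13 peaks in 5 of 12 genes, 235 per Mb (125 to 402), but 7 of these were the peaks of pnt, which is also in the EGFR and Ras list. Among the others, Gs2, a glutamine synthetase gene, had a peak of 457, and loco, a regulator of G-protein signalling, had 3 of 260 to 125. The Polycomb and trithorax list had 13 peaks in 6 of 21 genes, 166 per Mb (88.4 to 284), and the highest median signal of the lists, 271. Trl had 3 peaks of 1660, 399 and 271, trx 1 of 1054, ph-p, a Polycomb repressive complex subunit, 2 of 423 and 248, and lola, a BTB transcription factor gene, 2 of 362 and 243. Epithelial junction and polarity genes had 107 per Mb (58.7 to 180.0) in 6 of 19, among them crb, an apical polarity determinant, with 400 and cno, a junction scaffold, with 332. The density of this list was 99.6 per Mb (53.0 to 170) without replicate 3, an interval that reaches below the 56.5 of all genes.

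The Notch pathway itself, which acts above E(spl)m3-HLH, lay near the value for all genes. It had 8 peaks in 5 of 21 genes, 65.4 per Mb (28.3 to 129). The strongest were 2 peaks of 645 and 569 in mam, the nuclear co-activator of Notch, both nearest to the start site of CG18371. A peak of 468 lay in the first intron of neur, the ubiquitin ligase that activates Notch ligands, 1724 bp from its start site. Weaker peaks lay in kuz, the protease that cleaves Notch, with 150, and in Nrt, a cell adhesion protein gene that the list also holds, with 157 and 111. The receptor gene N and the ligand gene Ser, named after their values were seen like the genes in the next sentence, had 4.28 and 3.88 kb of eligible sequence and no near-start intronic peak. Of the E(spl) complex and its relatives, only hry, Hey and cwo had any eligible sequence, 1.05, 1.10 and 4.63 kb, and none held a peak. With 0 peaks the interval reached 544 per Mb, so little can be read from it.

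Most of the remaining lists had densities at or above the value for all genes. Segmentation, axon guidance, and ion channel and synapse genes lay below it, and the intervals of all remaining lists hold it. Ecdysone response genes had 18 peaks in 8 of 13 genes, 68.9 per Mb (40.9 to 109), led by the nuclear receptor gene Hr4 with 801 and the cyclin-dependent kinase gene Eip63E with 538, and with 496 in EcR, the ecdysone receptor gene, and 308 in br. Mesoderm and muscle genes had 79.0 per Mb in 8 of 25 genes, among them kirre (675), mbc (510), Mef2 (246) and rols (242). Neural precursor and neuroblast genes had 59.1 per Mb in 6 of 16, led by brat, a growth repressor of neuroblasts, at 956, then grh (628), elav (425) and insc (260). Hox genes and cofactors had 56.8 per Mb in 4 of 11, namely Abd-B (265), Antp (245), hth (191) and Ubx (188).

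Wingless signalling genes had 70.3 per Mb in 5 of 17, led by nkd (327) and Wnt4 (299). Hippo signalling had 93.1 in 3 of 13, with ex (410), kibra (271) and sd (116), and Hedgehog signalling 126 in 2 of 8, with boi (415) and ptc (226). Cell cycle genes had 97.9 in 3 of 15, with CycE (348), E2f1 (234) and Cdk4 (213). Actin and adhesion regulators had 65.0 in 3 of 18, with rhea (367), mew (346) and shot (188). Segmentation genes had 51.5 per Mb (6.24 to 186) with 1 host of 16, ptc. The proneural list had 2 hosts of 3, the muscle gene nau (220) and emc (136), in so little sequence that its interval runs from 32.7 to 976 per Mb. In replicate 3 alone the Hippo list had 5 hosts and the proneural list 1. Genes of neuronal function were at the low end, with intervals that hold the value for all genes. Axon guidance and neuronal adhesion genes had 40.3 per Mb (23.0 to 65.5) in 8 of 28, led by the netrin receptor gene fra (451) and by Sema1a (438). Ion channel and synapse genes had 28.1 (11.3 to 57.9) in 3 of 23, and of their 7 peaks 6 lay in dlg1 and scrib, scaffold genes that epithelia use as well, and 1 of signal 139 in Sh, a potassium channel gene.

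**Figure D4:**
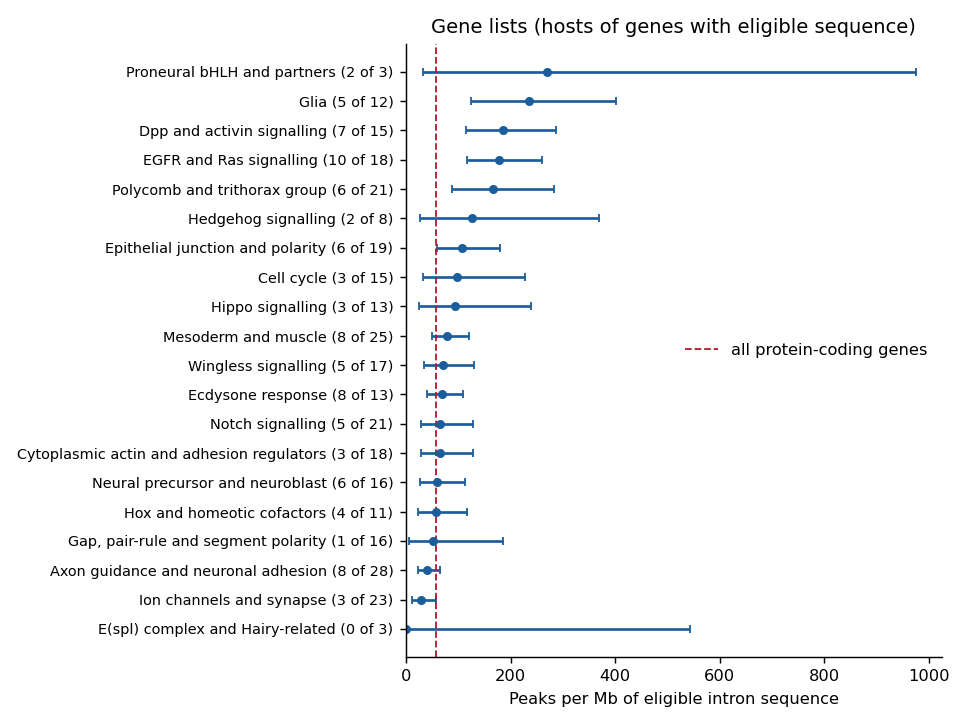
Near-start intronic peaks per Mb of eligible intron sequence (horizontal axis) for the 20 gene lists, with exact Poisson 95% intervals over peaks. Numbers beside the names are host genes of genes with eligible sequence, and the dashed line is the 56.5 per Mb of all protein-coding genes. The EGFR and Ras, Dpp and activin, glial, and Polycomb and trithorax lists lie at 166 to 235 per Mb, and ion channel and synapse genes at 28.1.

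The E-box words of the family were rare at the summits. Within 50 bp of the summit, CACGTG occurred on either strand in 8 of 1342 windows (0.60%, 0.30 to 1.17), in 1.64% of the windows centred 300 bp to both sides, and in 1.13% of windows every 500 bp of eligible sequence. CACGCG occurred in 15 windows (1.12%, 0.68 to 1.84), in 3.02% of the flanking windows and in 1.56% of the windows every 500 bp. The strongest peak with CACGTG lay in CG43693 and the strongest with CACGCG in KCNQ, a potassium channel gene named here after its values were seen, with a signal of 830. The N-box words CACGAG and CACAAG occurred in 1.56% and 4.17% of summit windows, and in 2.68% and 5.25% of the flanks. In windows every 500 bp of eligible sequence they occurred in 1.95% and 4.27%, so CACAAG was about as frequent at the summits as there. Control words made of the same letters behaved in both ways. CCATGG, with the letters of CACGTG, occurred in 0.67% of summit windows and 1.71% of flanks, CGCACG, with the letters of CACGCG, in 0.97% and 3.54%, but GTGCAC, also with the letters of CACGTG, in 3.35% and 2.53%. A match is a run of letters and not a bound site.

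Words rich in A and T were found at higher shares in the summit windows. GATAA, a word of GATA factors, was found in 24.9% of summit windows and 18.1% of flanks, and AAAAAA in 28.8% and 20.8%. The opposite was seen for GAGAG, the word bound by the protein of Trl, found in 8.12% of summit windows and 18.9% of flanks, and CACACA in 7.23% and 15.0%. Windows every 500 bp of eligible sequence lay between, with GAGAG in 11.2% and CACACA in 9.37%. The core word CGATA of the DRE and BEAF sites occurred in 10.1% of near-start intronic and in 21.7% of promoter summit windows, and the longer TATCGATA in 2 windows (0.15%) against 3.32% at promoters. The proneural E-box word CAGCTG occurred in 3.06% of summit windows, 5.03% of flanks and 3.58% of windows every 500 bp of eligible sequence. Of the words bound by Su(H), the DNA-binding partner of Notch, GTGGGAA was found in 0.45% and 1.71%, and GTGAGAA in 1.42% and 1.04%.

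The summits were poor in G and C, as the printed windows of ush, CG11050 and Lk6 show. The mean GC content within 50 bp of the summit was 32.3%, against 44.2% in the windows centred 300 bp away and 39.6% in windows every 500 bp of eligible sequence. GC was lower at the summit than in the mean of both flanks for 1182 of the 1342 peaks (88.1%, 86.2 to 89.7). The share was 91.7% among the strongest 336 and 86.0% among the weakest 336 by signal. Promoter summits had a mean of 34.6% and deeper intronic summits 31.8%.

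Among the 2080 words of 6 bases, 538 were found in at least 5% of summit windows, and ACAGTG had the highest ratio to windows of eligible sequence. The word was picked from these same windows, so its ratio at the summits is a description. It occurred in 8.42% of summit windows, 4.32% of flanks and 3.65% of windows every 500 bp. The word was not particular to near-start intronic peaks: promoter summit windows held it in 8.98% and deeper intronic ones in 5.74%. The next words, TTATAA and ATCTTA, hold few or no G and C letters.

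The scan did not use the direction in which the word lay around the summit. It did use the summit windows, which are part of the windows counted next, so how often the word was found is a description. ACAGTG was found within 150 bp of 408 summits (30.4%, 28.0 to 32.9) and within 150 bp of 11.0% of the positions in eligible sequence. It lay on both sides of 108 summits (8.05%, 6.71 to 9.63) and of 0.48% of the positions. Of the 560 matches, 436 (77.9%) read ACAGTG on the left of the summit or CACTGT on the right, as in the printed window of NFAT, where the positions gave 50.4%. The median distance of a match from the summit was 79.5 bp. By quartile of signal, from the strongest to the weakest, the share of inward matches was 79.2%, 78.0%, 80.2% and 73.0%, and both sides were hit in 11.0%, 8.66%, 8.06% and 4.46% of summits. Around promoter summits 68.7% of matches pointed inward and 2.99% of summits had both sides, and around deeper intronic summits 75.3% and 5.90%.

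In windows of 51 bp, the share with ACAGTG was 2.68% at the summit itself and rose to 8.20% at 100 bp to the left and 8.05% at 100 bp to the right. By 300 bp it was down to 1.94% and 1.71%, near the 1.75% of all eligible sequence. Farther out it lay between 1.64% and 2.31% from 350 to 600 bp to the left, and between 1.71% and 3.20% on the right, with 3.20% at 600 bp. Inward matches also shared neighbouring bases. The base before the word was T in 43.1% and C in 37.0% of 441 inward matches, the base before that was G in 47.6%, and the base after the word was G in 53.5%. Among 125 outward matches the corresponding shares were 24.8%, 43.2%, 29.6% and 28.8%. These matches were counted by the centre of the word, so their numbers differ slightly from those above.

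**Figure D5:**
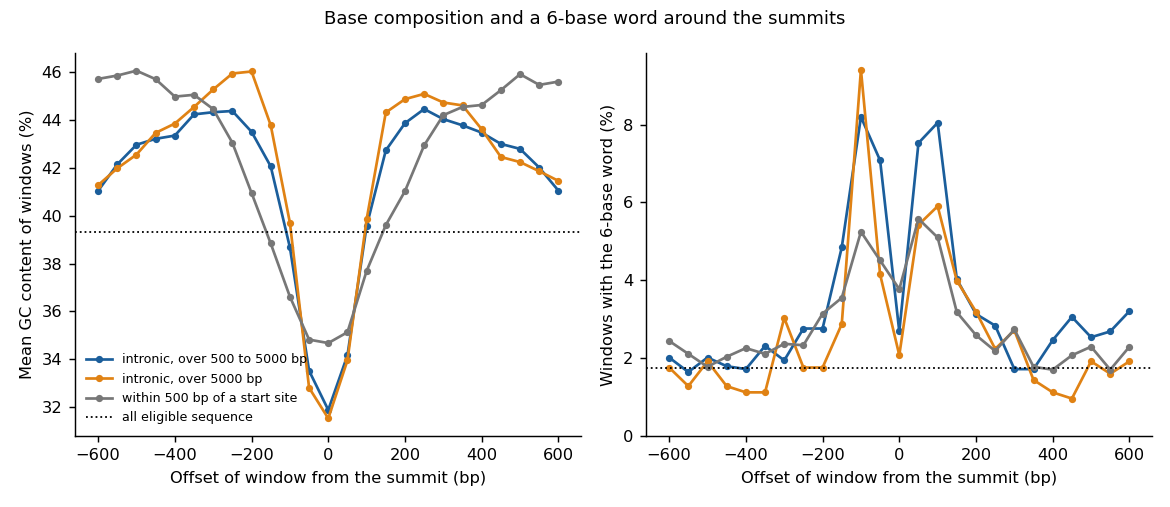
Mean GC content (left, %) and share of windows with the 6-base word found in the scan (right, %) in 51-bp windows from 600 bp left to 600 bp right of the summit, for near-start intronic, deeper intronic and promoter peaks, with all eligible sequence as a dotted line. GC content dips at the summit in all 3 sets, to 31.9% for near-start intronic peaks, and the word peaks at about 100 bp to both sides and drops to 2.68% at the summit.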

How the data were processed

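The authors deposited lists of peaks on dm6 for replicates 2 and 3 singly, for both pooled, and an IDR-thresholded list. The first 3 are named as peaks and background for input to IDR. They hold 30000 entries for replicate 2, 24781 for replicate 3 and 25791 for both pooled. Per the labels these came from GFP ChIP-seq of whole embryos. The sources used here name neither aligner nor peak caller. Each deposited signal value is the peak caller's score, on an unstated scale. No list gives reads, so depth is unknown, and intervals cover sampling of peaks only. The dm3 lists and the deposited −log10 values were not used.

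Summits were placed against Ensembl release 115 genes on 6 arms without transposable elements (13945 protein-coding genes), with sequence of the same assembly from RefSeq. Positions every 500 bp of eligible sequence (48036 in all) gave the background of shares. Wilson, exact Poisson and order-statistic intervals are at 95%. Of 378 gene-list entries, 357 matched by symbol and 8 by synonym, 8 were repeats and 5 were unmatched. Motif search used 16 words and 4 controls on both strands.

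The peaks, gene lists and words were chosen with earlier results of these data known. No test was run: the series has 1 group of 2 replicates. Named were the 20 strongest peaks, the 10 genes with most peaks, up to 4 hosts per list, up to 5 strongest unmatched peaks per replicate, 3 peaks on each side of each limit, and hosts of printed sequences. The longer sequence and the word ACAGTG were chosen after seeing the data. The scripts were tested on simulated data. Python 3.11.15, numpy 2.4.6, pandas 2.3.3 and scipy 1.17.1 were used.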

Additional observations from a re-analysis of the deposited data

How the results depend on the processing

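Over 15 other settings, 280 of 364 recomputed values stayed within a range around the reported value. That range was its 95% interval or, for counts, 1.5 times either way. For mean GC content it was 1 standard deviation across peaks either way. Among values of the main measures, 55 stayed and 28 moved. These were peak number, share and density, position, rank, replicate matching, hosts with a promoter peak, listed hosts, CACGTG and CACGCG. Among the other 281 values, mostly of gene lists and other words, 56 moved, and many of their intervals were wide. Of the 84 values that moved, many follow from the setting itself, such as a shorter list or a wider window. The cause of the others was not tested. With each replicate left out in turn, and as many strongest peaks of the other replicate taken, near-start intronic peaks numbered 1330 to 1387, 23.3% to 24.3% of the list and 55.4 to 57.7 per Mb, with 74.5% to 75.9% in a first intron and 77.5% to 79.5% nearest to a start site of the host. With start sites of protein-coding genes only, the density was 58.9 per Mb and the share nearest to the host's start site 86.3%. Counting only introns that are first in every transcript gave 48.8%. The strongest 2850 peaks held 662 near-start intronic peaks, or 27.6 per Mb, with 48.7, 29.3, 20.9, 20.03 and 16.9 per Mb in the 5 distance bins. Among these, 29.1% of hosts had an own promoter peak, 59 genes of the lists were hosts in place of 90, CACGTG occurred at 0.30% and CACGCG at 0.45% of summits, and 99.5% and 98.6% were matched in replicates 2 and 3. Shares matched in replicates 2 and 3 were 92.0% and 86.4% at 50 bp between summits, 99.8% and 99.6% at 200 bp, 99.9% in each by overlap of intervals, and 90.6% and 87.3% among the strongest peaks of each replicate. CACGTG and CACGCG occurred in 0.15% and 0.60% of windows reaching 25 bp to each side, and in 1.34% and 2.68% of those reaching 100 bp. Keeping transposable elements as genes, chosen after seeing the data, gave 1381 peaks. ACAGTG on both sides, also added then, was 7.71% to 7.89% with each replicate left out and 9.97% among the strongest 2850 peaks. No paired analysis was possible because the series holds 1 group. Signal values without read counts limit what can be said of weak peaks.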
